A study of Mus musculus with 6 samples.

Results

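The genes described here are 10 components of bone morphogenetic protein (BMP) signalling and its Id targets, read in the forebrains of 6 mice. They are the ligands Bmp4 and Bmp7, the receptors Bmpr1a, Bmpr1b and Bmpr2, the inhibitory Smad gene Smad7, and the Id genes Id1, Id2, Id3 and Id4. The members were taken by name from the table of 35275 genes, with names from GENCODE M21, and all 10 were found. All 10 also passed the filter on low counts that left 16938 genes for testing. The knockout group (cKO) held 3 C57BL/6 mice of genotype Pdgfra-CreER:Parp1fl/fl, in which tamoxifen-activated Cre removes the floxed Parp1 gene from cells that express Pdgfra. The control group held 3 littermates of genotype Parp1fl/fl without Cre. The series text says that both sexes were used, without saying which mouse was which. Both groups carried the floxed allele, both received tamoxifen on postnatal days 1, 2 and 3, and both were taken at postnatal day 9. Pdgfra marks oligodendrocyte precursors and is also used by fibroblasts of the brain's coverings, so only some of the cells whose RNA was read could lose Parp1.

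BMP ligands bind a complex of type I and type II receptors, which phosphorylates Smad proteins that enter the nucleus and switch on target genes. The Id genes are classic targets. Id proteins hold a helix-loop-helix but no DNA-binding region, so they pair with basic helix-loop-helix (bHLH) factors and keep them off DNA. In cultured rodent oligodendrocyte precursors, BMP4 turns cells towards astrocytes and holds back myelin genes, and Id2 and Id4 are known to restrain oligodendrocyte differentiation. Smad7 is induced by the same receptors and shuts them off.

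None of the 10 genes was called between cKO and control forebrains, and Id3 and Bmp4 came nearest. Id3 was lower in cKO with a log2 fold change of -0.41, and Bmp4 was lower with one of -0.73, and in both the 3 cKO libraries lay below the 3 controls. Id2 was also lower in every cKO library, by a small amount. The receptors, Bmp7, Smad7, Id1 and Id4 overlapped between the groups. Calls were made by the quasi-likelihood test of edgeR, at 0.05 after Benjamini-Hochberg adjustment over the 16938 genes. By that rule 0 of the 10 members were called lower, against 0.207% of all tested genes, and 0 higher, against 0.059%. Before adjustment, 2 of the 10 (Id3 and Bmp4) were lower at p under 0.05, against 2.75% of all genes, and none was higher, against 3.52%. The groups did not overlap, with cKO lower, for 3 of the 10, against 5.86% of all tested genes. They did not overlap with cKO higher for none of the 10, against 6.08%. The members' median log2 fold change was -0.06, beside -0.001 for all tested genes. DESeq2 called 1 member (Id3), and limma, on voom values or on FPKM, called 0.

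Facts about the libraries bear on every value below. Total counts ran from 17262042 to 29310193, and all pairs of libraries differed by more than sampling noise. Parp1 itself averaged 79.8 ± 0.84 CPM (counts scaled to a common library size; SD, n = 3) in cKO, against 91.2 ± 5.84 CPM in controls (n = 3). The Parp1 groups did not overlap and the gene was not called (edgeR adjusted p = 0.572), in a reading over all cells and all exons. Control replicate 3 stood apart: its summed striatal markers were at 325 CPM against 955 to 1224 in the other 5 libraries, and its summed thalamic markers at 668 CPM against 306 to 357. Control replicate 1 was the only library with expression of a Y-linked gene (1123 counts of Ddx3y, against at most 1 elsewhere) and had 3 counts of Xist, the RNA of the inactive X chromosome. All 3 cKO libraries and control replicates 2 and 3 had 20196 to 27661 counts of Xist, so by these genes no cKO library looked male. All 10 forebrain markers averaged over 1 CPM, and 8 of 10 midbrain and hindbrain markers were under 1 CPM, 4 of them with no count. Values per gene are given in CPM scaled by TMM, an edgeR factor for library composition. Levels between genes are compared in the deposited FPKM, which is also divided by gene length.

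**Figure D1:**
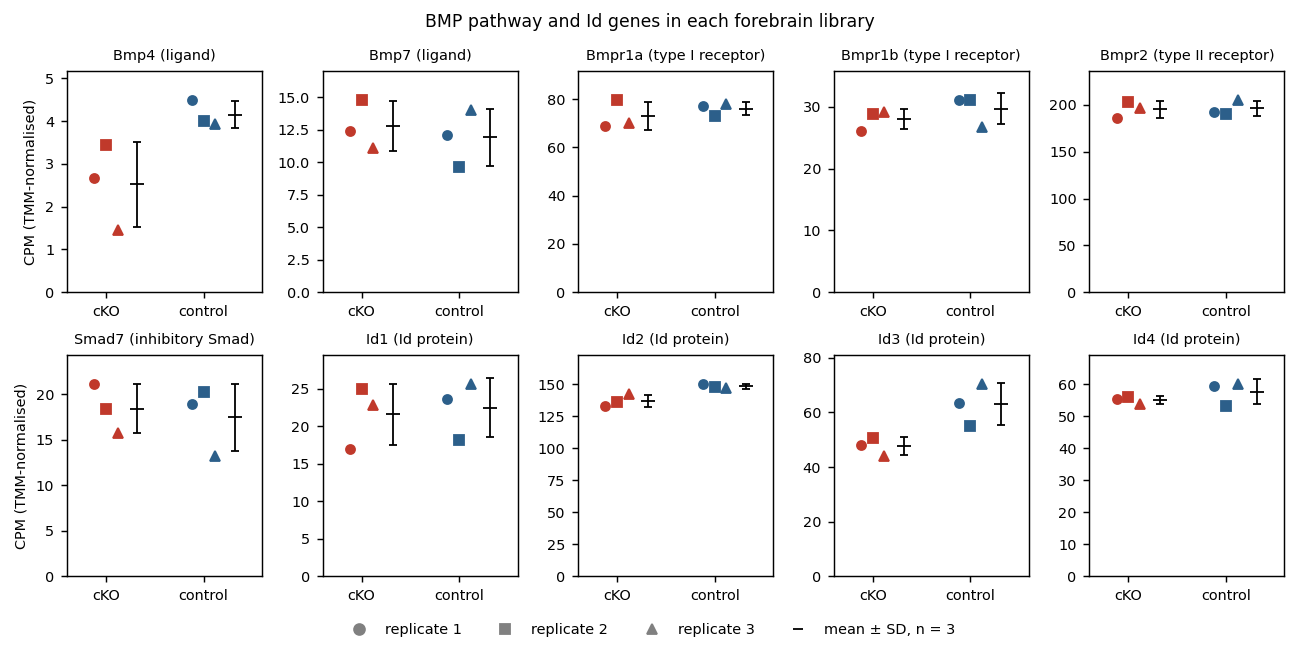
TMM-normalised CPM (vertical axis, from 0) of each of the 10 genes in the 3 cKO and 3 control libraries, with a symbol per replicate and the mean ± SD beside each group. For Bmp4, Id2 and Id3 the 3 cKO points lie below the 3 control points, and in the other 7 panels the groups overlap.

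Per unit of length, the Id genes were the most abundant members and the ligands the least. Id2 averaged 112 ± 5.47 FPKM over the 6 libraries (SD, n = 6), Id3 43.3 ± 7.78, Id4 33.9 ± 1.75 and Id1 19.0 ± 2.96 FPKM. The receptors followed, with Bmpr2 at 15.2 ± 0.46 FPKM, Bmpr1a at 12.5 ± 0.72 FPKM and Bmpr1b at 5.39 ± 0.40 FPKM. Smad7 averaged 4.20 ± 0.74 FPKM, Bmp7 3.36 ± 0.51 FPKM and Bmp4 1.61 ± 0.54 FPKM. Id2 stood clear of every other member, since its lowest library (106 FPKM) was above the highest of Id3 (54.7 FPKM). The ranges of Id3 and Id4, of Id1 and Bmpr2, of Bmpr1b and Smad7, and of Smad7 and Bmp7 overlapped, so those neighbours in the order were not separated by the spread over libraries. Within each library Id3 was above Id4 and Id1 above Bmpr2 in 6 of 6, and Bmp7 was above Bmp4 in 6 of 6.

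**Figure D2:**
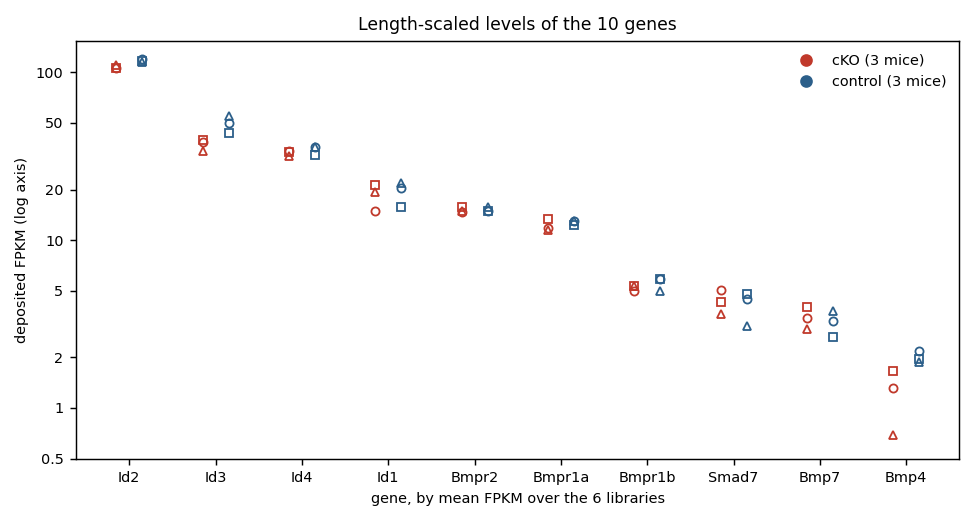
Deposited FPKM (log axis) of each gene in every library, cKO to the left of control, with genes ordered by their mean over the 6 libraries. Levels span from about 112 FPKM for Id2 to 1.61 FPKM for Bmp4, and the 3 cKO points of Bmp4 are the lowest in the plot.

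Of the ligands, Bmp4 had lower values in every cKO library, without a call, and Bmp7 overlapped between the groups. Bmp4 (ENSMUSG00000021835, chromosome 14, 46383520 to 46390669, minus strand, mm10) encodes a BMP that committed oligodendrocyte precursors themselves make in the mouse brain. It had 54, 85 and 42 reads in cKO replicates 1, 2 and 3, and 78, 87 and 86 in control replicates 1, 2 and 3. Scaled for depth this was 2.66, 3.43 and 1.46 CPM in cKO, against 4.504, 4.003 and 3.924 CPM in controls. The groups did not overlap, and cKO replicate 3 lay far under the other 5 libraries. The cKO mice differed more among themselves (a coefficient of variation of 39.4%) than the controls did (7.59%), while counting error alone gives 10.7% to 15.4% at these read numbers. On the log2 scale Bmp4 differed by -0.73 (95% interval -1.32 to -0.13), which did not pass (edgeR adjusted p = 0.684). The exact permutation p, two-sided, was 0.1, which is as small as 3 mice against 3 can give. The size rested on single mice, at -0.44 without cKO replicate 3 and -1.03 without cKO replicate 2. Against control replicate 2 alone, the control that shows neither mark described above, it was -0.69. Exons of Bmp4 overlap 89 bp of Gm15217 on the opposite strand, and the strand setting of the counting is not given in the sources used here.

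Bmp7 (ENSMUSG00000008999, chromosome 2, 172868012 to 172940321, minus strand) encodes a ligand made in the meninges and choroid plexus among other places. It was at 12.4, 14.8 and 11.1 CPM in cKO, against 12.1, 9.62 and 14.0 CPM in controls. The groups overlapped, although cKO replicate 2 lay above every control and control replicate 2 below every cKO library. The log2 fold change was 0.10, with an interval from -0.23 to 0.44 (edgeR adjusted p = 0.941), and it turned to -0.03 without cKO replicate 2 or without control replicate 2. Bmp4 made up 27.6%, 29.2% and 19.0% of the FPKM of both ligands together in cKO, against 39.9%, 42.5% and 33.2% in controls. These shares need no scaling between libraries, and the groups did not overlap. They rest on the same Bmp4 reads as the CPM above, so they are no separate evidence, and no test is given for them.

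The groups overlapped for all 3 receptor genes, and the intervals of their differences were narrow. Bmpr1a (ENSMUSG00000021796, chromosome 14, 34410734 to 34503341), the broadly expressed type I receptor, was at 69.0, 79.8 and 70.1 CPM in cKO, against 77.1, 73.0 and 77.9 CPM in controls. Its log2 fold change was -0.06 (interval -0.21 to 0.10, edgeR adjusted p = 0.921). Bmpr1b (ENSMUSG00000052430, chromosome 3, 141837136 to 142169425), the type I receptor enriched in neural precursors and glia, was at 26.1, 28.8 and 29.2 CPM in cKO, against 31.2, 31.1 and 26.8 CPM in controls. Its log2 fold change was -0.08 (interval -0.27 to 0.12, adjusted p = 0.913). Bmpr2 (ENSMUSG00000067336, chromosome 1, 59763400 to 59879014), the type II receptor that both pair with, was at 186, 203 and 197 CPM in cKO, against 193, 191 and 206 CPM in controls. Its log2 fold change was -0.01, with an interval from -0.15 to 0.13 that bounds a difference at 0.90-fold to 1.09-fold. The receptors' proportions to each other overlapped too, with Bmpr2 at 45.6% to 46.9% of their summed FPKM in cKO and 44.3% to 46.9% in controls. Exons of Bmpr1a overlap 290 bp of a gene on the opposite strand.

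Smad7 (ENSMUSG00000025880), the inhibitory Smad, varied between mice without following genotype. It was at 21.2, 18.4 and 15.7 CPM in cKO, against 18.9, 20.2 and 13.2 CPM in controls, with control replicate 3 the lowest library. The log2 fold change was 0.08, with an interval from -0.29 to 0.44 (edgeR adjusted p = 0.957), and it was -0.10 without control replicate 3.

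Id3 differed most among the Id genes, and by p it was the first of the 10 members and number 80 of all 16938 genes. Id3 (ENSMUSG00000007872, chromosome 4, 136143497 to 136145755, plus strand) encodes an Id protein that is abundant in astrocytes and blood vessels of the mouse brain. It had 976, 1257 and 1268 reads in cKO replicates 1, 2 and 3, and 1100, 1200 and 1547 in control replicates 1, 2 and 3. Scaled for depth this was 48.1, 50.8 and 44.1 CPM in cKO, against 63.5, 55.2 and 70.6 CPM in controls. The groups did not overlap, and the nearest pair was cKO replicate 2 and control replicate 2. The means were 47.7 ± 3.35 CPM in cKO (SD, n = 3) and 63.1 ± 7.70 CPM in controls (SD, n = 3), a log2 fold change of -0.41 with a 95% interval from -0.60 to -0.21. This interval, which is for 1 gene and not adjusted, spans 0.66-fold to 0.87-fold. Id3 did not pass after adjustment (edgeR adjusted p = 0.165; exact permutation p = 0.1, the smallest possible). It was called by DESeq2's Wald test (adjusted p = 0.0235) and by edgeR with no filter on low counts (0.00473), and over all 19 alternatives its adjusted p ran from 0.00473 to 1. Without control replicate 3, in which Id3 was highest, the log2 fold change was -0.32 and the adjusted p again 0.165. Against control replicate 2 alone, the only control with neither the Y-linked expression nor the regional shift, it was -0.22 (adjusted p = 1).

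Id2 (ENSMUSG00000020644, chromosome 12, 25093799 to 25097140, minus strand), the most abundant of the 10, was slightly lower in every cKO library. It was at 133, 136 and 142 CPM in cKO, against 151, 148 and 147 CPM in controls. The groups did not overlap, although the gap between them was narrow. The control mice differed by a coefficient of variation of 1.25%, under the 1.56% to 1.96% that counting error alone gives at these read numbers. The log2 fold change was -0.12 (interval -0.24 to 0.01), 0.92-fold, and it did not pass (edgeR adjusted p = 0.831; exact permutation p = 0.1).

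Id4 and Id1 showed no separation. Id4 (ENSMUSG00000021379, chromosome 13, 48261228 to 48266026, plus strand), an Id gene of neural precursors and astrocytes, was at 55.4, 56.1 and 53.8 CPM in cKO, against 59.4, 53.1 and 60.1 CPM in controls. Its log2 fold change was -0.06 (interval -0.21 to 0.09, edgeR adjusted p = 0.909), and 253 bp of its exons overlap genes on the opposite strand. Id1 (ENSMUSG00000042745, chromosome 2, 152736251 to 152737410, plus strand), an Id gene strong in endothelium, was at 17.0, 24.9 and 22.8 CPM in cKO, against 23.7, 18.1 and 25.7 CPM in controls. Id1 spread more widely within each group (coefficients of variation of 19.0% in cKO and 17.4% in controls) than the other Id genes. Its log2 fold change of -0.05 had an interval from -0.42 to 0.31 (adjusted p = 0.971) and became 0.09 without cKO replicate 1 and 0.05 without control replicate 3.

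The make-up of the Id pool can be read within each library. The FPKM of the 4 Id genes summed to 194, 201 and 195 in cKO, against 225, 209 and 227 in controls. Id2 supplied 53.0% to 56.4% of that sum in cKO and 50.5% to 56.2% in controls. Id3 supplied 19.8%, 19.7% and 17.4% in cKO, against 22.1%, 20.9% and 24.1% in controls. Id4 supplied 17.5%, 16.7% and 16.3% in cKO, against 15.9%, 15.4% and 15.8% in controls, and the groups did not overlap for Id3 or Id4. The shares add up to the whole, so a smaller share of Id3 makes the others larger without any change in their own levels. No test is given for these shares.

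**Figure D3:**
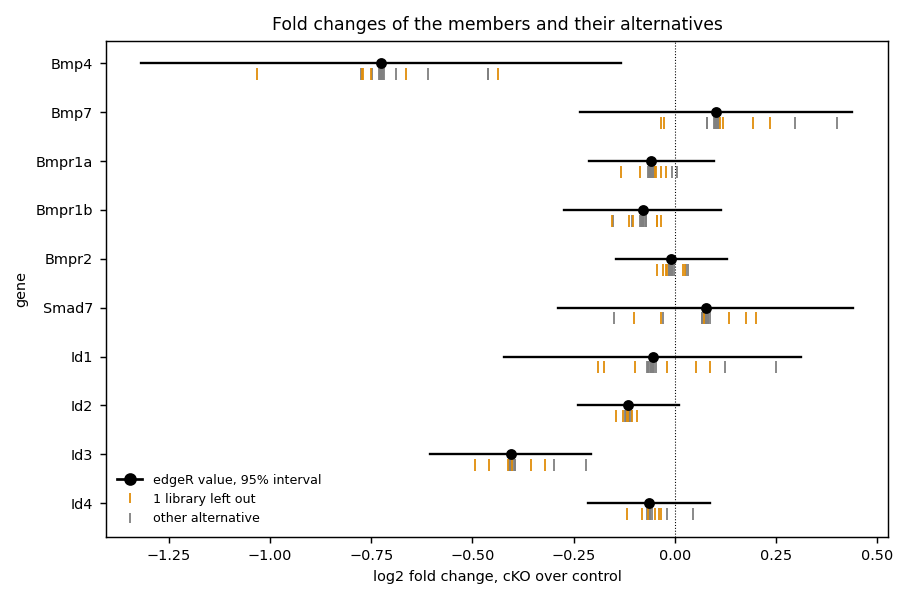
Log2 fold change of cKO over control (horizontal axis) for each gene, as a point with its 95% confidence interval, and below it a tick for every alternative (orange, 1 library left out; grey, another setting). The intervals of Bmp4 and Id3 lie wholly below 0, and the other 8 include it. All ticks of Bmp4, Bmpr1b, Id2 and Id3 are negative.

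The stretches upstream of 3 Id genes are shown because Id genes are textbook targets of the BMP Smads, and the letters these factors are known to prefer can be looked up in them. Smad1 and Smad5 favour GC-rich elements such as GGCGCC, and Smad4 favours CAGAC. Both were searched on both strands in the 250 bases before the start of transcription (RefSeq, GRCm38.p6, the same build as mm10) and no match of the one overlapped the other. GGCGCC reads the same on both strands and was counted once. Windows were used for 7 of the 10 members, without Id1, Bmp7 and Smad7. GGCGCC occurs in 9.59% of 32851 such windows of 27025 genes, CAGAC in 42.2% and both in 3.6%. Id2 and Id4 each held 1 GGCGCC and no CAGAC, and Id3 held 2 CAGAC, 1 on each strand, and no GGCGCC. Bmpr1a and Bmpr2 also held 1 GGCGCC each, Bmpr1b held 1 CAGAC in each of 2 of its 3 windows, and Bmp4 held neither motif. G and C made up 62.8% (Id2), 75.6% (Id4), 78.8% (Bmpr1a) and 64% (Bmpr2) of the windows with GGCGCC. In those without it they made up 62.8% (Id3), 63.2% (Bmp4) and 46.8% to 56.4% (Bmpr1b). The shares over all windows were not matched for this content. Each match is printed 5′ to 3′ on the gene's own strand, with the matched letters in capitals and 12 bases on each side. The sites are at chr12:25096306-25096335 (Id2, minus strand), chr13:48260956-48260985 (Id4, plus strand), and chr4:136143643-136143671 and chr4:136143742-136143770 (Id3, plus strand, both inside an exon of a longer GENCODE transcript).

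Id2 GGCGCC site: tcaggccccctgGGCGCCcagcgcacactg

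Id4 GGCGCC site: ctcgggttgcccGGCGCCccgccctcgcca

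Id3 first CAGAC site: tgtcctcggcgtCAGACcagcctaaggaa

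Id3 second CAGAC site, read as GTCTG: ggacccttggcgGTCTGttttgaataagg

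These matches are descriptions of the sequence only. Id2, whose groups did not overlap, and Id4, whose groups did, share the GC-rich letters, and binding was not measured in these samples.

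The other genes listed around the pathway gave 1 call, in the list of bHLH partners or competitors of Id proteins. Of 72 other genes in 6 lists (ligands, receptors, Smads and their regulators, secreted antagonists, target genes, and bHLH partners or competitors of Id proteins), 68 were tested. By edgeR 1 was called lower and 0 higher, beside 0.207% and 0.059% of all genes. At p under 0.05 before adjustment, 6 were lower and 1 higher, beside 2.75% and 3.52% of all genes. Of the 6, 3 came from the list of bHLH partners or competitors (Olig2, Olig1 and Tcf12). The median log2 fold change of the 68 was -0.10, with 48 negative and 20 positive values. All tested genes had a median of -0.001, with 8500 negative and 8438 positive values. The signs of the 68 were not counted without control replicate 3, the library with shifted regional markers. Single values depended on that library: without it Rgmb went from -0.24 to -0.05, and Eng from 0.32 to 0.20. The called gene was Olig2, the bHLH factor that specifies the oligodendrocyte lineage and that Id2 and Id4 can bind. Olig2 was at 37.4, 37.5 and 30.2 CPM in cKO, against 56.4, 53.1 and 50.7 CPM in controls, a fall by 0.61 on the log2 scale (edgeR adjusted p = 0.0116). It was not called without control replicate 1 (0.0846) or against control replicate 2 alone (0.0666). Olig2 and Olig1 also stand in the list of oligodendrocyte precursor markers below. Its relative Olig1 was at 121, 105 and 83.3 CPM in cKO, against 166, 147 and 146 CPM in controls. It differed by -0.58 on the log2 scale and was not called (adjusted p = 0.268), though it was by DESeq2 (0.000169) and by edgeR without cKO replicate 1 (0.0389). Of the 14 partners tested, 1 was called and 11 had a negative value (median -0.20). The E proteins Tcf3, Tcf4 and Tcf12, the general partners that Id proteins bind most readily, had log2 fold changes of -0.05, 0.01 and -0.175. The interval of Tcf12 ran from -0.336 to -0.014, and the gene was not called (edgeR adjusted p = 0.768).

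Among the 10 other ligands tested, 0 were called. The groups did not overlap, with cKO lower, for 2 of them, against 5.86% of all tested genes. Gdf10, a growth factor of the BMP3 type, was at 8.58, 8.84 and 9.53 CPM in cKO, against 11.1, 12.3 and 17.2 CPM in controls. It differed by -0.59 on the log2 scale (edgeR adjusted p = 0.292), was called with no filter on low counts (0.0388), and differed by -0.39 without control replicate 3. Inhbb, the activin beta-B chain, was at 12.68, 11.02 and 10.68 CPM in cKO, against 13.05, 13.43 and 16.15 CPM in controls. Its log2 difference was -0.32 (adjusted p = 0.719). Bmp2, the ligand closest in sequence to Bmp4, had one of 0.01. Of 10 other receptors and co-receptors, none was called. Eng, an endothelial co-receptor, was at 22.7, 25.6 and 23.1 CPM in cKO, against 21.0, 20.4 and 15.9 CPM in controls. It was the 1 gene of these 10 whose groups did not overlap, with cKO higher, against 6.08% of all tested genes. Its log2 fold change was 0.32 (edgeR adjusted p = 0.627), and that of Rgmb, a BMP co-receptor of neurons, -0.24 (0.837). Without control replicate 3 these were 0.20 for Eng and -0.05 for Rgmb.

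The 13 Smads and regulators had the tightest range of the 6 lists, from -0.16 to 0.12, with 0 called. Counting error differed between the lists. The fewest reads in a library were 48 in this list (Smad6), while Sp7 of the target list had as few as 5. The part of read numbers in the ranges was not tested. Ski, a nuclear brake on Smads, had a log2 fold change of 0.12 and Zeb1, a zinc finger factor that binds Smads, -0.15 (edgeR adjusted p = 0.854 and 0.835). Smad1, Smad5 and Smad4, the signal carriers, had -0.10, -0.01 and 0.02. Of 16 secreted antagonists and modulators 0 were called; Vwc2, a secreted BMP antagonist of the nervous system, had -0.37 (adjusted p = 0.725) and Chrd, which encodes chordin, 0.16 (adjusted p = 0.838). Without control replicate 3 the values were 0.045 for Ski, -0.20 for Vwc2 and 0.07 for Chrd. Of 12 other target genes 0 were called and 11 had a negative value (median -0.13), beside 8500 of all 16938 tested genes with a negative value. None of the 12 had an edgeR p under 0.05 before adjustment, and the groups overlapped for each. Some also stand in other lists, such as Smad6 among the Smads and Hes5 among the bHLH genes, so the lists are not independent. Hes5, a bHLH repressor best known as a Notch target, was at 6.02, 4.44 and 1.88 CPM in cKO, against 4.97, 9.62 and 9.49 CPM in controls. Its groups overlapped and its log2 difference was -1.0 (adjusted p = 0.831). Sp7, the bone transcription factor osterix, differed by -0.98 at a mean of 0.52 CPM (adjusted p = 0.854). Control replicate 2 was its highest library, at 1.33 CPM, and without that library the log2 difference was 0.04. Smad6, the inhibitory Smad most selective for BMP receptors, had a log2 difference of -0.09. Exons of Olig1, Eng, Zeb1, Chrd and Hes5 overlap genes on the opposite strand, by 61 to 433 bp, so their counts are less certain.

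**Figure D4:**
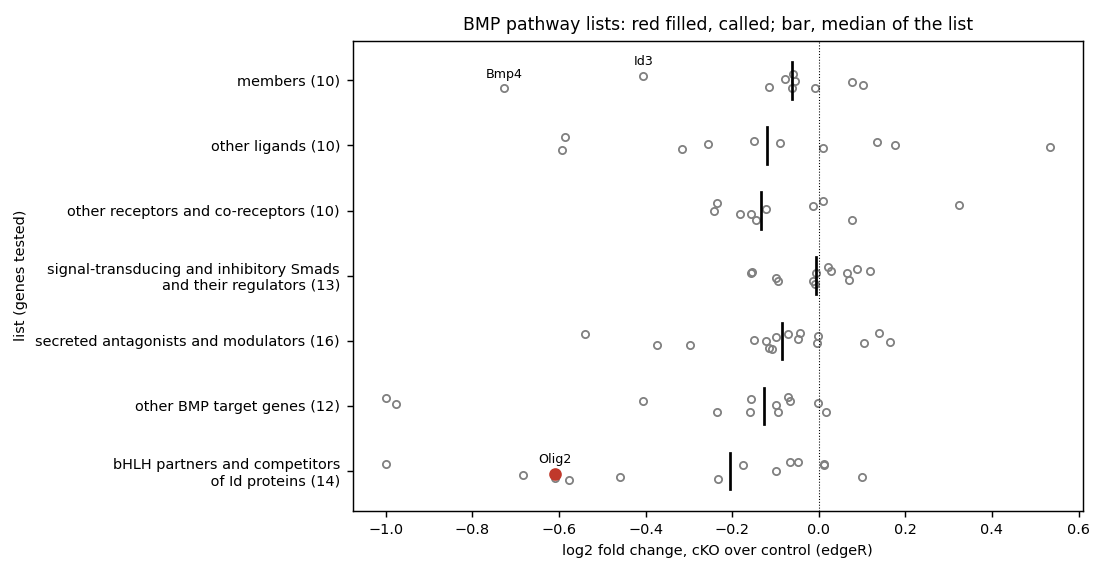
Log2 fold change of cKO over control (horizontal axis) for the 10 members and for each tested gene of the 6 other lists, with the number tested in brackets, a bar at each list's median and a filled red point for a called gene. Olig2 is the 1 filled point, and the Smad list is the narrowest, from -0.16 to 0.12. Some genes stand in more than 1 list, and read numbers differ between the lists.

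The differences in Bmp4 and Id3 were read in whole forebrain, where fewer cells of a type and less RNA per cell cannot be told apart. Summed markers of the oligodendrocyte lineage were also lower in cKO. Summed precursor markers (led by Pdgfra and Olig1; 9 of 9 measured genes with lower, non-overlapping cKO values and 6 called) were at 326 to 407 CPM in cKO, against 649 to 675 CPM in controls. Summed markers of newly formed and myelinating oligodendrocytes (led by Mbp and Sirt2; 9 of 11 genes with lower, non-overlapping cKO values and 9 called) were at 381 to 433 CPM in cKO, against 757 to 919 CPM in controls. Over all tested genes, 5.86% had lower, non-overlapping cKO values and 0.207% were called lower. No marker of either list was at 0. The ratio of the group means was 0.56 for the precursor sum and 0.49 for the oligodendrocyte sum, beside an edgeR fold of 0.61 for Bmp4, 0.76 for Id3 and 0.92 for Id2. Their part in the differences of Bmp4, Id2 and Id3 was not tested.

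Summed markers of other cells that use these genes did not separate in the same direction. Summed astrocyte markers (11 genes, 1 with lower, non-overlapping cKO values) were at 3970 to 4312 CPM in cKO and 3848 to 4157 CPM in controls, with Slc1a2 and Gfap the most abundant. Endothelial markers (10 genes, led by Slco1c1 and Cldn5) were at 312 to 381 CPM in cKO and 319 to 342 CPM in controls, and choroid plexus markers (8 genes, led by Ttr and Enpp2) at 834 to 904 CPM in cKO and 783 to 941 CPM in controls. Pericyte and mural markers (8 genes, led by Rgs5 and Vtn) were at 176 to 251 CPM in cKO and 174 to 202 CPM in controls. Neuronal markers (9 genes, led by Stmn2 and Tubb3) were at 5198 to 5748 CPM in cKO and 5232 to 5647 CPM in controls. Leptomeningeal fibroblast markers (10 genes, led by Igf2 and Col1a2) were at 235 to 423 CPM in cKO and 246 to 316 CPM in controls. Microglial markers (8 genes, led by Csf1r and C1qa) were at 302 to 366 CPM in cKO and 208 to 300 CPM in controls, where the groups did not overlap. Beside the 1 astrocyte gene, 1 choroid plexus gene had lower, non-overlapping cKO values. Higher, non-overlapping cKO values were seen for 2 pericyte and mural, 1 fibroblast and 5 microglial genes. The endothelial and neuronal lists had 0 in either direction. Over all tested genes the shares were 5.86% lower and 6.08% higher. No marker of these lists was called or was at 0 in every library.

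**Figure D5:**
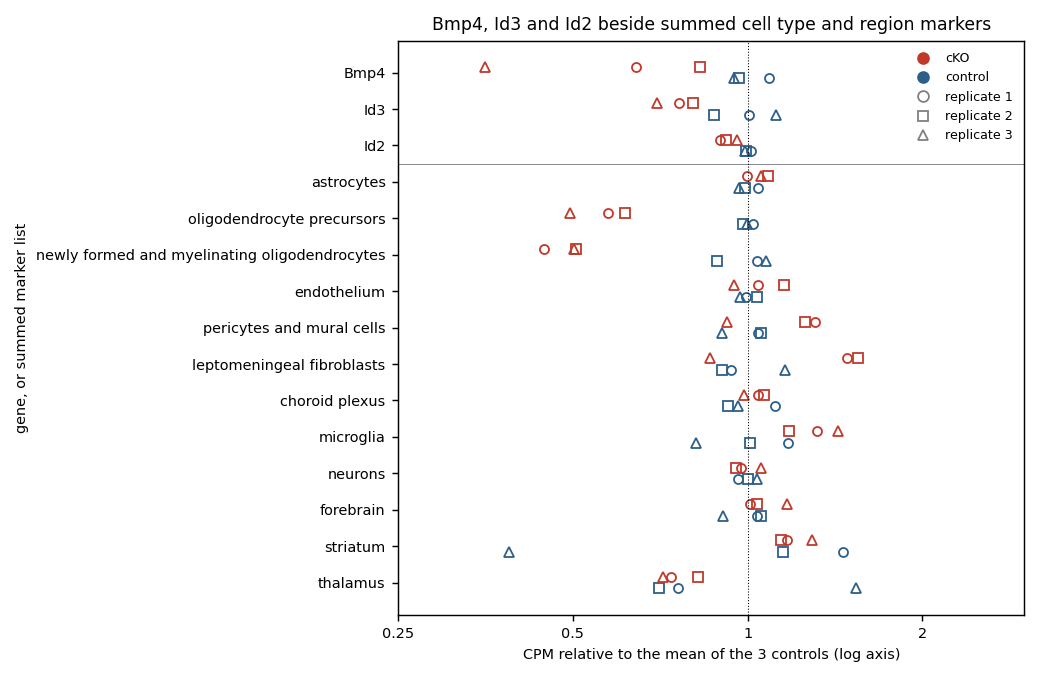
CPM relative to the mean of the 3 controls (log axis) for Bmp4, Id3 and Id2 (top rows) and for summed marker lists, cKO above control in each row with a symbol per replicate. The oligodendrocyte sums separate the groups most widely (ratios of means 0.56 and 0.49), astrocyte, endothelial and neuronal sums overlap, and control replicate 3 lies apart in the striatal and thalamic rows.

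The genes whose profile over the 6 libraries lay nearest to that of Id3 were Zfp119b, Slc35f2 and Tspan2. Nearness was the root mean square difference of log2 CPM after centring each gene on its own mean, among 15158 genes of at least 1 CPM, and was 0.05, 0.05 and 0.06. The root mean square deviation of Id3 from its own mean was 0.23. Tspan2, a tetraspanin abundant in oligodendrocytes, was at 45.2, 45.9 and 43.1 CPM in cKO, against 54.8, 49.3 and 64.9 CPM in controls. Slc35f2, a solute carrier, was at 9.57, 10.4 and 9.25 CPM in cKO, against 12.01, 10.63 and 13.83 CPM in controls. As with Id3, control replicate 3 was highest and cKO replicate 3 lowest in each of the 3 genes. Such likeness follows from picking the genes by their nearness to Id3 and is no separate evidence. Adjusted p for these 3 genes lay between 0.339 and 0.796 in the edgeR test, so no call was made, and overlaps with other genes were not checked for them.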

How the data were processed

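Per the labels' protocols, poly-T beads and a strand-keeping kit were used on RNA of 6 forebrains. The authors deposited counts of whole reads per Ensembl gene, with 1 column per mouse. CASAVA, STAR 2.5, HTSeq 0.6.1, DESeq 2.1.6.3 and mm10 stand in the submitters' processing notes, without roles. The deposited FPKM values equalled the deposited count over a fixed gene length and the library total (lengths whole within 0.01 bp for 100% of values).

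Counts were tested with edgeR 4.0.16 in R 4.3.3 (filterByExpr with a minimum count of 10 and total of 15, TMM, robust quasi-likelihood test, two-sided, 3 against 3 mice, Benjamini-Hochberg over 16938 genes). Intervals are 95%, from the test's F and degrees of freedom. The procedure was checked on simulated counts. Alternatives used DESeq2 1.42.0 and limma 3.58.1, with limma run on voom values, log2(FPKM + 1) and log2(FPKM + 0.1). Lhfpl3, a listed precursor marker, was not used here.

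Members and lists were chosen with earlier results of these data known. The text names the members, Parp1, called pathway genes, the 2 smallest p of each pathway list, the 2 most abundant markers of each cell type list, and the 3 nearest profiles. Bmp2, Tcf3, Tcf4, Tcf12, Smad1, Smad4, Smad5 and Smad6 were named after their values were seen. Replicate numbers are shared between the groups, but same-numbered libraries did not deviate together (correlations of -0.02, -0.06 and -0.01), so they were not taken as pairs.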

Additional observations from a re-analysis of the deposited data

How the results depend on the processing

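Over 18 other settings and 1 chosen after seeing the data (control replicate 2 as the only control, as the one with neither Y-linked expression nor shifted regional markers, its spread assumed like that of the cKO group), Bmp4, Bmpr1b, Id2 and Id3 were negative in all 19. Of the 10 members, 1 was called lower (Id3) by DESeq2 and with no filter on low counts; none was in the other 17, and none was called higher. Genes called lower numbered 62 by DESeq2, 61 with no filter, 20 by limma on FPKM with a minimum of 0.5 at either pseudocount and 18 with no filter there. Genes called higher numbered 51, 50, 4 and 3 in the same order, 17 by limma-voom, 6 without robust dispersion and 5 with control replicate 2 alone. With 1 library left out, 24 to 44 genes were called lower and 4 to 19 higher. With the replicate block, 27 genes were called lower and 5 higher, Olig1 was called (adjusted p = 0.0269), and Id3 had an adjusted p of 0.495; no other named call changed with the block.

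Values near 0 changed sign under some settings. By limma-voom the log2 fold changes were 0.005 for Bmpr1a, 0.033 for Bmpr2, -0.03 for Smad7 and 0.12 for Id1. With control replicate 2 alone they were 0.028 for Bmpr2, -0.15 for Smad7, 0.25 for Id1 and 0.046 for Id4. With 1 library left out, Bmp7 ranged from -0.034 to 0.235, Bmpr2 from -0.044 to 0.025, Smad7 from -0.10 to 0.20, Id1 from -0.19 to 0.086 and Sp7 from -1.48 to 0.04. Olig2 was not called by limma on FPKM. The causes were not tested. Counting error was largest for Bmp4 among the members (10.7% to 15.4%, at 42 to 87 reads), and its cKO mice spread more than that (39.4%).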

Other observations

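Bmp7 and the leptomeningeal fibroblast markers ordered the mice alike in each group. Bmp7 was at 12.4, 14.8 and 11.1 CPM in cKO replicates 1, 2 and 3, where the summed fibroblast markers were at 404, 423 and 235 CPM. In control replicates 1, 2 and 3, Bmp7 was at 12.1, 9.62 and 14.0 CPM and the fibroblast sum at 255, 246 and 316 CPM. The order was not particular to this pair. Summed thalamic markers had it too, at 321, 357 and 311 CPM in cKO and 330, 306 and 668 CPM in controls. Id3 also had it, at 48.1, 50.8 and 44.1 CPM in cKO and 63.5, 55.2 and 70.6 CPM in controls. With 3 mice in a group no test of this order was made, and the part of meningeal tissue in these values was not tested.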
